A study of Mus musculus with 10 samples.

Results

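The tRNA fragments described here were those of 10 amino acids, Arg, Asn, Gln, Ile, Met, Phe, Pro, Thr, Trp and Tyr, in small RNA of mouse splenic B-cells. They were the rows of the count table in the tRNA class whose name ended in one of these amino acids. This rule gave 150 of the 431 tRNA rows and of the 6968 rows of the whole table, and the 150 rows carried 21 anticodons. The rule itself uses no measured value, but it was set with earlier results of these data known. CD43-negative splenic B-cells of wt mice, of 3'RR-deficient mice (without the enhancer region at the far end of the heavy chain genes of antibodies) and of Eµ-deficient mice (without the enhancer at the near end of their constant part) were cultured for 2 days in medium alone or with LPS, a bacterial product that activates B-cells. The labels give this culture time for both, while the paper describes, for other RNA libraries, cells taken before stimulation. Were the non-stimulated cells here not cultured, the effects of LPS and of time in culture could not be told apart. The wt and 3'RR-deficient cells had 2 libraries with and 2 without LPS, and the Eµ-deficient cells had 1 of each. Every library pooled cells of 2 mice, so a replicate was a pool, and p-values measure the spread between pools. The labels give the LPS dose in different units in different places, so it is not printed here.

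A tRNA carries an amino acid to the ribosome and reads the codons of the messenger RNA with its anticodon, the 3 bases in the middle of the molecule. Several genes, often identical in sequence, encode the same tRNA. Nucleases such as angiogenin cut mature tRNAs near the anticodon, and others cut in the outer loops or release the trailer of the precursor, and the pieces are known as tRNA fragments. Fragments accumulate in stressed cells, and some are known to act on translation. The libraries were selected for short inserts, so the counts were those of fragments and do not measure the level of full tRNAs.

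Sequences are shown for 5 rows that the results turn on and whose letters were found in GENCODE M21 transcripts or RefSeq promoter windows of GRCm38. All are given as DNA of the tRNA strand from 5' to 3', as the row spans it, and capitals mark the anticodon. The first is the ArgTCG row with most counts, on the plus strand at chr7:79466419-79466491, within the unclassified transcript Gm10616. The next is the leading ArgTCT row, at chr3:122292948-122293032 on the minus strand, inside a retained intron of Gm17494. Its 85 bases include an intron just after the anticodon, as do those of the IleTAT row at chr13:21896938-21897031 on the minus strand.
chr7.tRNA389-ArgTCG: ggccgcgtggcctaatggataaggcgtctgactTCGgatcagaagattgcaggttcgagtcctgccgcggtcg
chr3.tRNA628-ArgTCT: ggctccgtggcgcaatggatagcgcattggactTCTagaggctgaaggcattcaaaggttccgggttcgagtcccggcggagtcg
chr13.tRNA999-IleTAT: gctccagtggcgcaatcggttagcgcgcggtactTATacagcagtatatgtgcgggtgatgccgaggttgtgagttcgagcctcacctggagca

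A pair of ProTGG rows shows how far rows of 1 anticodon can lie apart. The row on chromosome 17 (chr17:23538766-23538837, minus strand) had 57247 counts over the 10 libraries, and the row on chromosome 11 (chr11:67291139-67291210, plus strand, in a retained intron of Myh8) had 454. They differed at 13 of their 72 positions, an identity of 81.9%.
chr17.tRNA997-ProTGG: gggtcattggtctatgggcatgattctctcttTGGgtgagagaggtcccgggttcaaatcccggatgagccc
chr11.tRNA372-ProTGG: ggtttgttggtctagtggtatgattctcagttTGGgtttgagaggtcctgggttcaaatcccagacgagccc

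The 150 rows lay on 19 chromosomes. Of these, 52 (34.7%) were on chromosome 13, all between positions 21161405 and 23530419, a stretch of 2.37 Mb. RefSeq lists a tRNA gene at the same position for 143 of the 150 rows. The rows were 72 to 96 bases long. Of the rows tested, 18 were longer than 80 bases, namely the 10 TyrGTA rows, 4 ArgTCT rows and 4 IleTAT rows, whose genes are known to hold an intron that is spliced out of the precursor. Every row had counts. The only row too low to be tested was chr10.tRNA1111-MetCAT.

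The libraries held 3482540.0 to 18144016 counts, of which 1.12% to 4.60% fell on the 150 rows. The second non-stimulated libraries of wt and 3'RR-deficient cells were the shallowest and stood apart, with 0.347% and 0.266% of their counts on rRNA against at most 0.0423% elsewhere. In them 18 of 21 anticodons in wt and 20 of 21 in 3'RR-deficient cells were lower than in the first library, by a median log2 ratio of -1.04 and -0.99. This touches each comparison of LPS with non-stimulated cells below, so values without both libraries are given beside the calls. The microRNAs chosen for lymphocytes were miR-150-5p, miR-142a-3p, miR-142a-5p, miR-155-5p and miR-181a-5p. Whether they are specific to lymphocytes was not tested. They were found in every library and summed to between 100301 and 189119 CPM (counts scaled to a common total, here that of the microRNA counts). In the second wt and 3'RR-deficient non-stimulated libraries miR-142a-5p was at 9926 and 8252 CPM, against 40605 to 127751 elsewhere. These libraries were also lowest in miR-142a-3p and highest in miR-150-5p (76001 and 68687 CPM, against 5625 to 37558) and miR-181a-5p. With LPS miR-155-5p lay between 30399 and 123403 CPM, against 4479 to 9949 without. The sum of 8 microRNAs of red cells, myeloid, endothelial, stromal and liver cells lay between 3533 and 15891 without LPS and between 233 and 6011 with LPS. Of these, miR-122-5p of liver was at 0 in 3 libraries and miR-145a-5p of stromal cells in 2, and the others were found in every library. The part of other cells in the results was not tested.

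Pro tRNAs took the largest share of the counts. They held 50.0% of the pooled counts of the 150 rows, and between 40.5% and 65.5% in single libraries. Arg followed with 13.2% pooled, and the others ranged from 6.90% for Gln to 1.16% for Asn. The pooled order was not that of each library, since Ile (4.04% to 11.1%) lay above Gln in all 5 non-stimulated libraries and above Arg (7.82% to 16.9%) in both second non-stimulated ones. Some rows of an anticodon had nearly equal counts, such as chr15.tRNA913-MetCAT and chr8.tRNA788-MetCAT, and others lay far apart. Which rows are identical in sequence was not determined, and a sum over rows may count the same reads at several copies. For levels between anticodons the row with most counts was therefore taken, as CPM per 100 bases of that row. On this scale the 3 Pro anticodons led, with means over the 10 libraries of 1676 for ProTGG, 1304 for ProCGG and 1225 for ProAGG. ArgCCT (509.7) and ThrTGT (470.2) came next, and IleGAT (25.5) and IleTAT (22.7) were the lowest.

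**Figure D1:**
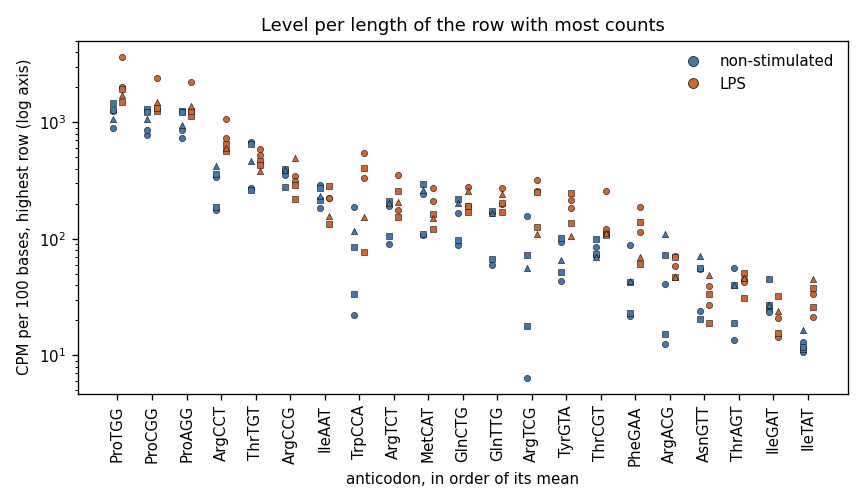
Level of each of 21 anticodons in the 10 libraries, as CPM per 100 bases of its row with most counts, on a log axis. Circles are wt, squares 3'RR-deficient and triangles Eµ-deficient libraries. The Pro anticodons lie highest, and in each of the 20 neighbouring pairs the ranges overlap.

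All 20 pairs of neighbours in this order had overlapping ranges over the libraries. The order within a library was the same in all 10 libraries for 4 pairs only, namely ProTGG over ProCGG, ProCGG over ProAGG, ProAGG over ArgCCT, and ArgCCG over IleAAT. The ratio of summed ProCGG to ProAGG counts stayed between 0.482 and 0.502 in every library, although the ProAGG level itself ran from 2521 to 7856 CPM. The ratio of ProTGG to ProAGG was less steady, from 1.00 to 1.33 without and from 1.08 to 1.34 with LPS. How a read that fits several rows was counted is not stated, so shared reads and a shared level of ProCGG and ProAGG cannot be told apart.

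With LPS, the 10 amino acids took more of the tRNA counts in each genotype. Their share of all tRNA counts was 19.4% and 15.1% in the wt non-stimulated libraries and 32.8% and 31.0% in the wt LPS libraries. The 3'RR-deficient shares were 16.7% and 17.8% in medium alone, then 24.2% and 28.1% under LPS. The Eµ-deficient share was 10.6% without and 14.2% with LPS, each below every other library of its condition. Within each genotype no LPS library overlapped a non-stimulated one, but the Eµ-deficient LPS share lay below the non-stimulated shares of the other genotypes. The mean difference over genotypes was 9.05 percentage points, with p = 0.0278 in a two-sided exact permutation test of the LPS labels within genotype, which is the smallest p that the 72 arrangements allow. The 95% Wilson intervals of the shares were at most 0.117 percentage points to each side and cover counting error only. Without both second non-stimulated libraries the difference was 8.52 points with an exact p of 0.0556, the smallest that this smaller set allows. Taken over all counts instead of tRNA counts, the difference was 1.72 points, with an exact permutation p of 0.0556. Without Pro it was 4.75 points (exact permutation p = 0.0278).

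**Figure D2:**
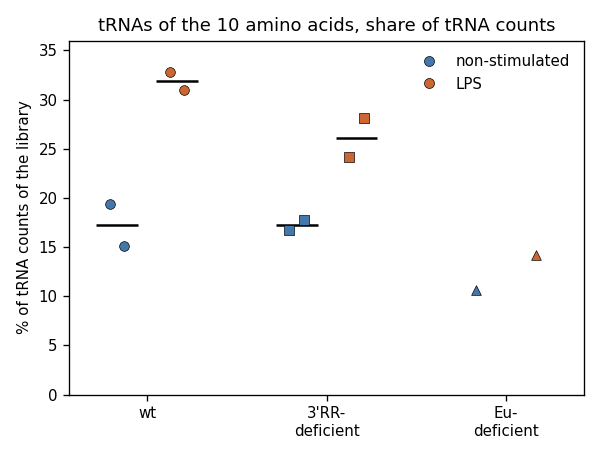
Share of the tRNA counts of each library taken by the tRNAs of the 10 amino acids, in percent, by genotype and culture. Points are libraries and bars are group means. LPS libraries lie above non-stimulated ones within each genotype, and the Eµ-deficient libraries at 10.6% and 14.2% are the lowest of their condition.

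Single anticodons also rose with LPS relative to the other small RNAs. IleTAT, ArgTCG and TyrGTA were higher with LPS in the fit of all 10 libraries, and none of the 21 was lower. These are 3 of 21 anticodons, beside 4.63% higher and 4.52% lower among the 3869 features tested. The test was edgeR's quasi-likelihood test with Benjamini-Hochberg adjustment over all features, on rows summed by anticodon, with genotype in the model. Leaving out a library other than a wt non-stimulated one gave 0 or 1 calls, with 0 without wt LPS replicate 2. The log2 fold change was positive for 17 of the 21 anticodons, with a median of 0.66, beside a median of 0.031 over all features. The median was 0.12 for the 14 anticodons of Gly, Glu, Asp, Val, Lys and His. It was -0.13 for the 15 anticodons of Ala, Cys, Ser, Leu and SeC. No anticodon of either list was called in edgeR. An unadjusted edgeR p under 0.05 was reached by 6 of the 21 anticodons, 3 of each other list and 967 of the 3869 features.

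**Figure D3:**
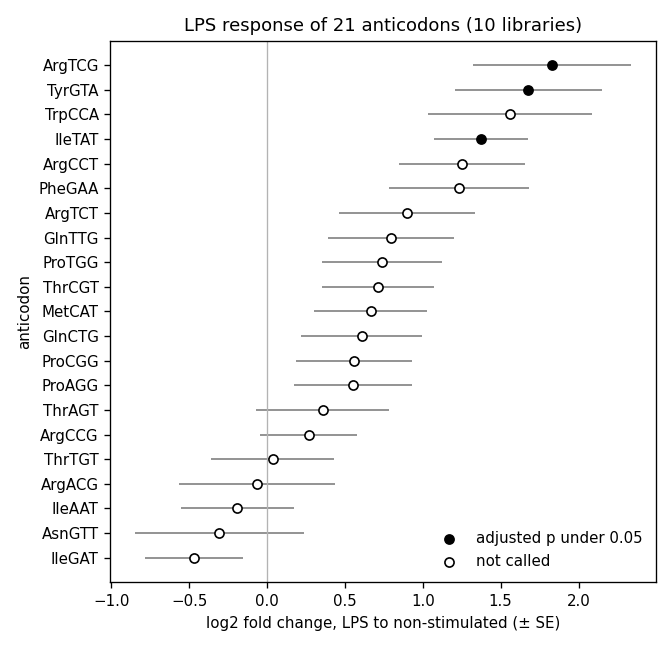
Log2 fold change of LPS over non-stimulated cells for each of 21 anticodons, with its SE, from the edgeR fit of 10 libraries. Filled points passed an adjusted p of 0.05. ArgTCG, TyrGTA and IleTAT are filled, and 4 anticodons lie below 0.

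IleTAT, the least abundant of the 3 Ile anticodons in summed counts but for IleGAT, reads the rare codon ATA. Its level in non-stimulated libraries was 26.5 and 21.3 CPM in wt, 31.9 and 28.7 in 3'RR-deficient and 50.2 in Eµ-deficient cells. With LPS it was 69.9 and 77.8 in wt, 89.4 and 61.7 in 3'RR-deficient and 99.4 in Eµ-deficient cells. All 5 LPS libraries lay above all 5 non-stimulated ones. LPS moved the level by 1.37 on the log2 scale (SE 0.30, edgeR adjusted p = 0.0172). Without both second non-stimulated libraries it was 1.27 (adjusted p = 0.0268), and the call was lost without wt LPS replicate 2 (adjusted p = 0.0515) and with tRNA scaling (0.99, adjusted p = 0.108). The other Ile anticodons gave -0.19 for IleAAT and -0.47 for IleGAT, so that IleTAT took 1.35% to 2.99% of the Ile counts without LPS and 2.94% to 9.02% with LPS.

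The IleTAT row on chromosome 13 shown above lies in the hairpin annotated as Mir1983. The mature miR-1983 is given here because it joins the last bases of that tRNA gene, in capitals, to the bases that follow it in the precursor, in lower case.
miR-1983: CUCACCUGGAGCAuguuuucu
It spans chr13:21896930-21896950 on the minus strand, with 13 bases inside the tRNA row and 8 past its end. The row of miR-1983 had 168 and 55 counts in wt non-stimulated and 491 and 1073 in wt LPS libraries. It rose by 2.06 on the log2 scale (SE 0.40, adjusted p = 0.0109 in the same edgeR fit). At 7.18 to 28.3 CPM without and 27.2 to 75.0 CPM with LPS, only the Eµ-deficient LPS library lay within the non-stimulated range. Without both second non-stimulated libraries the change was 1.69 (SE 0.36, edgeR adjusted p = 0.00903). How many reads the tRNA and microRNA rows share was not tested.

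ArgTCG reads the codon CGA. It stood at 229 and 42.4 CPM in the wt non-stimulated libraries, at 180.2 and 64.6 in those without the 3'RR, and at 171 in the Eµ-deficient one. With LPS it was 788 and 469.6 CPM in wt, 343 and 492 in 3'RR-deficient and 387 in Eµ-deficient cells. The groups did not overlap, and the lowest values were those of both second non-stimulated libraries. LPS moved ArgTCG by 1.83 on the log2 scale (SE 0.51, edgeR adjusted p = 0.0446), and 1.30 without these libraries (adjusted p = 0.0248). In the leading row, shown above, the second wt non-stimulated library had 22 counts against 1030 in the first, and that row alone gave 1.71 (SE 0.67, adjusted p = 0.132 in edgeR).

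TyrGTA is the sole Tyr anticodon, and its 10 genes all hold an intron. Its level was 679.9 and 178 CPM in wt, 468 and 214 in 3'RR-deficient and 415 in Eµ-deficient non-stimulated libraries. With LPS it was 1256 and 1719.9 CPM in wt, 864 and 1750.3 in 3'RR-deficient and 778 in Eµ-deficient cells. Each LPS library lay above each non-stimulated one. This was a change of 1.68 on the log2 scale (SE 0.47, edgeR adjusted p = 0.0466), and 1.202 without both second non-stimulated libraries (adjusted p = 0.0402). Of the 10 fits that left out a library, ArgTCG was called only without either wt non-stimulated library and TyrGTA only without the first of them, and adjusted p reached 0.109 and 0.127 in edgeR. Neither was called with DESeq2 size factors (0.0580 and 0.0584) or in 8 libraries without the Eµ-deficient ones (0.0688 and 0.0646), nor was TyrGTA with tRNA scaling (0.0534).

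**Figure D4:**
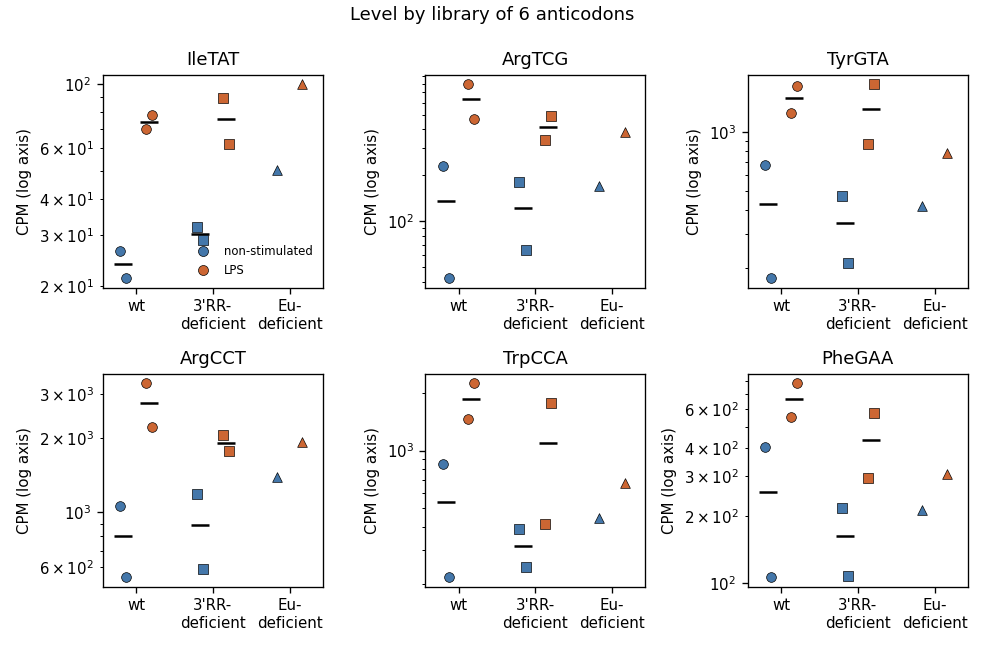
Level of 6 anticodons in each library, in CPM on log axes that differ between panels, by genotype and culture. Points are libraries and bars are group means. IleTAT, ArgTCG, TyrGTA and ArgCCT show no overlap between all LPS and all non-stimulated libraries, while TrpCCA and PheGAA do overlap.

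The LPS and non-stimulated libraries did not overlap for 5 of the 21 anticodons, all higher with LPS, beside 5.69% of all features that were higher without overlap. Besides the called anticodons these were ArgCCT and GlnTTG. ArgCCT, which reads AGG, had the highest summed counts of the Arg anticodons. It ran from 549.5 to 1396.5 CPM without LPS and from 1778 to 3325.5 with LPS, which came to 1.25 on the log2 scale (SE 0.40, edgeR adjusted p = 0.0781). Its share of the Arg counts was 47.5% to 50.0% without and 55.2% to 60.7% with LPS. GlnTTG ran from 140.2 to 401 CPM without and from 411 to 633 with LPS (log2 difference 0.79, SE 0.40, edgeR adjusted p = 0.248).

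TrpCCA and PheGAA, the sole anticodons of Trp and Phe, had large changes that did not pass the adjusted threshold. TrpCCA stood at 853 and 218 CPM in the non-stimulated wt libraries, and at 388 and 244 CPM in those without the 3'RR. The LPS values were 1459.8 and 2253 for wt, then 413 and 1766 for 3'RR-deficient cells. In Eµ-deficient cells it was 442 without and 676 with LPS. The first 3'RR-deficient and the Eµ-deficient LPS libraries lay within the non-stimulated range. The difference was 1.56 on the log2 scale (SE 0.52, edgeR adjusted p = 0.0888) for TrpCCA and 1.23 (SE 0.45, adjusted p = 0.115) for PheGAA. PheGAA ran from 107 to 406 CPM without and from 295 to 782 with LPS. The TrpCCA rows did not move together. In the edgeR fit of single rows chr10.tRNA867-TrpCCA gave -0.23 (SE 0.32) and the other 7 gave 1.67 to 2.18. In the second non-stimulated libraries of wt and 3'RR-deficient cells it had 729 and 723 counts. The other TrpCCA rows had 37 to 75 and 68 to 124 counts there. This row is named because of these values.

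The remaining Arg anticodons were spread widely. ArgTCT, whose leading row is shown above, had a log2 fold change of 0.90 (SE 0.44), ArgCCG of 0.27 (SE 0.31) and ArgACG of -0.067 (SE 0.50). ArgACG took 6.26% to 16.4% of the Arg counts without LPS and 4.09% to 6.98% with LPS. ArgTCG took 3.82% to 10.7% and 9.93% to 15.3%. The ranges with and without LPS overlapped for the shares of ArgACG and ArgTCG, unlike those of ArgCCT.

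Among the others, the Pro anticodons gave 0.74 (ProTGG), 0.56 (ProCGG) and 0.55 (ProAGG), with SE between 0.37 and 0.39. GlnCTG gave 0.61 (SE 0.39) and MetCAT 0.66 (SE 0.36). The Thr anticodons gave 0.71 (ThrCGT), 0.36 (ThrAGT) and 0.036 (ThrTGT), and AsnGTT gave -0.31 (SE 0.54). None of these passed the test, with adjusted p from 0.241 to 0.963 in edgeR. Summed by amino acid, Tyr was called higher (log2 difference 1.69, SE 0.48, edgeR adjusted p = 0.0477), which is 1 of 10 amino acids beside 4.69% of the features higher in that fit. Tyr has a single anticodon, so this repeats the call of TyrGTA. It was called in 1 of the 10 fits that left out a library, and gave 1.21 without both second non-stimulated libraries (adjusted p = 0.0411 in edgeR).

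MetCAT rows were of different lengths and did not move together. This split was noticed after the values were seen and is given without a test. The anticodon CAT belongs both to the initiator tRNA that starts every protein and to the elongator tRNA, and the row names do not tell them apart. Of the 19 rows, 9 had 72 bases and 9 had 73. The median level of the 72-base rows lay between 42.0 and 85.6 CPM without LPS and between 56.3 and 150.2 CPM with LPS. In Eµ-deficient cells it went from 53.0 to 150.2 CPM, while the median of the 73-base rows went from 83.8 to 41.6. In the second non-stimulated libraries the 72-base rows were at 74.0 and 85.6 CPM, above the first libraries at 42.0 and 48.6. The 73-base rows were far lower there, at 7.07 and 5.39 CPM. Of these, 7 rows were at 2.89 to 8.53 CPM in the second and 38.1 to 92.1 CPM in the first non-stimulated libraries. The other 73-base rows, chr15.tRNA913-MetCAT and chr8.tRNA788-MetCAT, were at 75.1 to 78.7 CPM in the second libraries, against 161 to 190.4 CPM in the first libraries of wt and 3'RR-deficient cells. With the row of most counts, chr15.tRNA913-MetCAT, in place of the sum, the log2 fold change of MetCAT with LPS was -0.18 instead of 0.66.

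**Figure D5:**
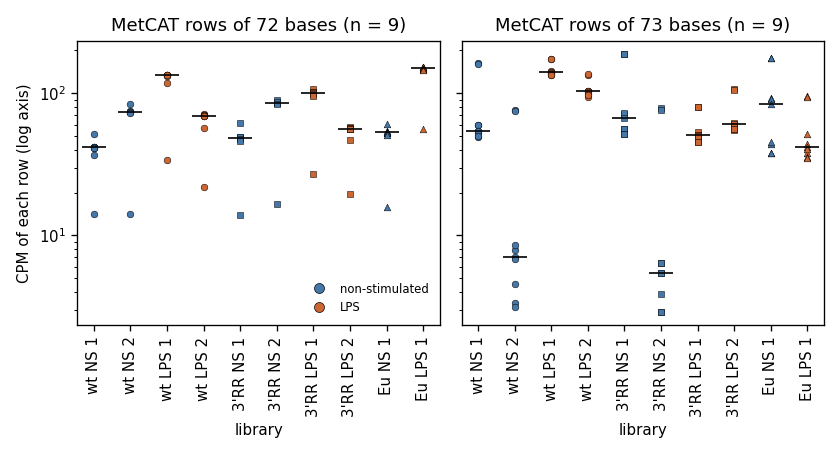
Level of each MetCAT row by library, in CPM on a log axis, for the 9 rows of 72 bases and the 9 rows of 73 bases. Points are rows, horizontal marks are their medians, and NS stands for non-stimulated. The 73-base rows fall to a median of 7.07 and 5.39 CPM in the second non-stimulated libraries, where the 72-base rows do not.

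Fitted as single rows, 15 of 149 were higher with LPS and none was lower, beside 4.36% higher and 4.74% lower of the 4242 features in that fit (edgeR's quasi-likelihood test). By anticodon these were 6 of 10 TyrGTA rows, 4 of 5 ArgTCG rows, 4 of 5 IleTAT rows and 1 of 3 ArgCCG rows. Of the 15, 12 lay on chromosome 13. Rows of an anticodon may share reads, so they are not taken as separate observations. Without both second non-stimulated libraries 14 of the 15 were still called, with log2 fold changes of 1.22 to 1.66, and chr13.tRNA981-IleTAT was not (1.11, adjusted p = 0.0560 in edgeR). That fit called 17 rows higher and 3 lower, beside 5.82% higher and 8.56% lower of its 4053 features. The lower ones were the AsnGTT rows chr3.tRNA285-AsnGTT (-2.35), chr15.tRNA1013-AsnGTT (-1.39) and chr3.tRNA757-AsnGTT (-1.15), which are named because of these values. With all 10 libraries the same AsnGTT rows had log2 fold changes of -1.66, -0.75 and -0.51, and none passed. Leaving out a library other than a wt non-stimulated one gave 2 to 9 called rows, with 2 without 3'RR-deficient LPS replicate 1. The 18 rows longer than 80 bases were all 10 TyrGTA rows, 4 ArgTCT rows and 4 IleTAT rows. A split by length therefore repeats the anticodons, and length was not tested apart from them. The 10 long rows called were the 6 TyrGTA and 4 IleTAT rows above, and all 18 had a positive fold change. Of the 131 shorter rows 5 were called and 97 were positive. The median log2 fold change was 1.40 for the longer and 0.54 for the shorter rows. In the same fit of 10 libraries, 5 of the 147 rows of Ala, Cys, Ser, Leu and SeC were called higher and 1 lower. Of the 127 rows of Gly, Glu, Asp, Val, Lys and His, 1 was called higher and 0 lower. Their medians were 0.42 and 0.026, against 0.59 for the 149 rows here. At an unadjusted edgeR p under 0.05 were 50 of these 149, 61 of the 147, 29 of the 127 and 1092 of the 4242 features.

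The smallest p belonged to chr13.tRNA960-ArgTCG, at chr13:23526456-23526528 on the minus strand. Its CPM lay from 9.15 to 24.8 without LPS and from 55.3 to 129 with LPS, or 2.06 on the log2 scale (SE 0.40, edgeR adjusted p = 0.0114). The next was chr13.tRNA1009-ArgCCG (chr13:21215458-21215530, minus strand), with 12.3 to 29.2 CPM without and 62.2 to 134 with LPS (1.88, SE 0.38, adjusted p = 0.0126 in edgeR). Its level was 0.944 to 1.34 times that of the ArgTCG row in every library. The IleTAT rows on chromosome 7 (chr7.tRNA158-IleTAT, chr7:28372999-28373093, plus strand), chromosome 13 (chr13.tRNA999-IleTAT) and chromosome 17 (chr17.tRNA515-IleTAT, chr17:83861944-83862036, plus strand) had log2 fold changes of 1.41 (SE 0.29), 1.39 (SE 0.31) and 1.29 (SE 0.28). All 3 were called, with adjusted p from 0.0132 to 0.0177 in edgeR. Both Arg rows were called in each of the 10 fits that left out a library, but the IleTAT rows in 8 (chromosome 7), 6 (chromosome 13) and 5 (chromosome 17), with adjusted p up to 0.0772, and in none of them with tRNA scaling (0.0886 to 0.151). Without both second non-stimulated libraries the Arg rows gave 1.66 and 1.52 and the IleTAT rows 1.33, 1.22 and 1.30, all called.

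The 10 rows with the highest mean level were all Pro rows. The highest was chr17.tRNA995-ProTGG (chr17:23546476-23546547, minus strand) with a mean of 1089.9 CPM, and it ran from 627 to 926 CPM without and from 976 to 2316 CPM with LPS. Its difference of 0.75 on the log2 scale did not pass (SE 0.34, edgeR adjusted p = 0.194). The next were chr1.tRNA1030-ProCGG (851 CPM), chr7.tRNA443-ProTGG (809.9 CPM), chr11.tRNA207-ProTGG and chr3.tRNA92-ProTGG (both 802 CPM). The other 5, chr13.tRNA969-ProAGG, chr14.tRNA711-ProAGG, chr14.tRNA193-ProTGG, chr7.tRNA979-ProAGG and chr11.tRNA396-ProCGG, had means from 655 to 800.2 CPM. None was called, with log2 fold changes of 0.45 to 0.79 and adjusted p from 0.186 to 0.423 in edgeR. The pair of ProTGG rows shown above gave 0.11 (SE 0.39) for chromosome 17 and 0.36 (SE 0.34) for chromosome 11.

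Within a single genotype the LPS response had fewer libraries behind it. In wt cells 0 of 21 anticodons passed in edgeR, nor did any of the 3614 features of that fit (0%). An unadjusted p under 0.05 was found for 3 of the 21 anticodons and 428 of the 3614 features. In 3'RR-deficient cells 0 of 21 and 0% of the features passed, with 2 anticodons and 402 of the 3614 features under an unadjusted p of 0.05. DESeq2 called no anticodon in either. IleTAT gave a log2 fold change of 1.61 (SE 0.52) in wt and 1.31 (SE 0.51) in 3'RR-deficient cells. ArgTCG gave 2.21 (SE 0.91) and 1.76 (SE 0.90), and TyrGTA 1.78 (SE 0.84) and 1.93 (SE 0.85). The means were higher with LPS for 19 of 21 anticodons in wt, 15 in 3'RR-deficient and 15 in Eµ-deficient cells, and for 14 in all 3 genotypes.

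The test of the difference between the LPS responses of 3'RR-deficient and wt cells called 0 of 21 anticodons and 0% of all features in edgeR, with 0 anticodons at an unadjusted p under 0.05 and 0 in DESeq2. The median difference was -0.41 on the log2 scale, beside 0.11 for all features, and 2 of 21 anticodons were above 0. This median ran from -1.20 to 0.095 as single libraries were left out, and was 0.018 with tRNA scaling. The difference was 0.15 (SE 1.16) for TyrGTA, -0.30 (SE 0.72) for IleTAT and -0.44 (SE 1.24) for ArgTCG, so that the SE exceeded each of these differences.

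Loss of the 3'RR was compared with wt over both cultures to see whether this enhancer region bears on these tRNA fragments. Of the 21 anticodons 0 passed in edgeR, beside 0.0258% of all features, with 0 at an unadjusted p under 0.05 and 0 in DESeq2. The log2 fold changes ran from -0.76 (SE 0.57) for TrpCCA to 0.54 (SE 0.35) for IleGAT, and PheGAA gave -0.64 (SE 0.49). With a library left out TrpCCA ran from -1.35 (without 3'RR-deficient LPS replicate 2) to -0.42 (without wt non-stimulated replicate 1), PheGAA from -0.90 to -0.27 without these same libraries, and IleGAT from 0.32 to 0.70 (without 3'RR-deficient non-stimulated and LPS replicate 1). Among non-stimulated libraries the median was 0.13 and among LPS libraries -0.41, with 14 and 2 of the 21 anticodons above 0. Neither comparison called an anticodon or any other feature (0% each) in edgeR, and none had an unadjusted p under 0.05. Set against the wt library of the same replicate number and culture, 9 and 2 of the 21 anticodons were lower in the 3'RR-deficient non-stimulated libraries, and 19 and 8 in the LPS libraries. As single libraries were left out, the non-stimulated median ran from -0.43 (without 3'RR-deficient replicate 1) to 0.64 (without wt replicate 1) and the LPS median from -0.64 to -0.12. The latter was without wt LPS replicate 1, the library with the highest Pro levels, such as 10540 CPM of ProTGG against 4427 to 5742 CPM in the other LPS libraries.

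Eµ-deficient cells, with a single library in each culture, were compared with wt in the fit of all 10 libraries. Of the 21 anticodons 0 passed in edgeR, beside 2.71% of all features, with 0 at an unadjusted p under 0.05 and 0 in DESeq2. The values ran from -0.80 (SE 0.73) for TrpCCA to 0.95 (SE 0.67) for ArgACG, with a median of 0.066. IleTAT had the smallest p, with 0.76 (SE 0.39, adjusted p = 0.421 in edgeR), but 0.0035 with tRNA scaling and 0.47 without the Eµ-deficient non-stimulated library. Without that library ArgACG was -0.079, and without the Eµ-deficient LPS library 1.68. The Eµ-deficient IleTAT levels of 50.2 and 99.4 CPM were the highest of the non-stimulated and of the LPS libraries. ArgACG stood at 468 CPM in the Eµ-deficient non-stimulated library, against 70.2 to 301 CPM in the other 4, and at 170.1 CPM with LPS, within the 149.9 to 235 CPM of the others. In the same comparison 6 of the 14 anticodons of Gly, Glu, Asp, Val, Lys and His were called higher, with a median log2 fold change of 1.60.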

How the data were processed

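The authors deposited raw read counts per small RNA feature and library, whole numbers without normalization. The submitters' processing notes name cutadapt 1.2.1, Bowtie2 and mm10. The counting program, the strand setting and the handling of reads that fit several rows are not given in the sources used here, and the methods of the paper describe other RNA libraries. Libraries were made with a NextFlex small RNA kit and PCR, without a stated use of molecular identifiers. No genome was used here.

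Rows were summed by anticodon or amino acid, or kept single. Tests used edgeR 4.0.16 in R 4.3.3 with TMM scaling and filterByExpr over the whole table, two-sided quasi-likelihood tests, Benjamini-Hochberg adjusted over all features, at a threshold of 0.05. The fit of 10 libraries had terms for genotype and LPS and a biological coefficient of variation of 56.6%. Comparisons within wt and 3'RR-deficient cells used the mean of each group in 8 libraries (59.1%). CPM are TMM-scaled. Scaling factors ran from 0.529 to 0.672 in the first non-stimulated and from 1.00 to 1.48 in the other libraries. Replicates differed far beyond counting error, with a chi-square per degree of freedom of 66.4 to 119 over 149 rows.

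Every anticodon was named. Of single rows, the 10 highest in mean CPM and those 5 of smallest p are named here. The members and lists were chosen with earlier results of these data known. Alternatives were other scalings, filters, DESeq2 1.42.0, a replicate block, 8 libraries and leaving out each library. The row with most counts, the fits without both second non-stimulated libraries and the share without Pro were added after the data were seen. The test was tried on simulated data.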

Additional observations from a re-analysis of the deposited data

How the results depend on the processing

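The number of anticodons called with LPS depended on the scaling. It was 3 as reported, 1 with DESeq2 size factors, 8 with total count scaling, 12 with microRNA scaling and 1 with tRNA scaling, all higher. It was 4 without a filter, 6 with a filter of 10 CPM in 2 libraries, 5 with the DESeq2 Wald test, 1 in 8 libraries without the Eµ-deficient ones, 1 with the row of most counts, and 0 to 3 when each library was left out in turn, with 0 without wt LPS replicate 2. In these 10 fits IleTAT was called in 9, ArgTCG in 2 and TyrGTA in 1. The median log2 fold change of the 21 anticodons was above that of all features under each scaling, at 0.58 against -0.067 (DESeq2 size factors), 1.10 against 0.43 (total count), 1.30 against 0.65 (microRNA) and 0.29 against -0.35 (tRNA), so the scaling moved both medians together. Amino acids called numbered 0, 5, 7 and 0 under these 4 scalings, 2 without a filter, 4 with the CPM filter, 2 with DESeq2, 0 in 8 libraries and 0 to 1 with a library left out. Single rows called numbered 15, 62, 72 and 12 under these 4 scalings, 10 in 8 libraries, 41 without a filter (1 of them lower), 38 with the CPM filter, 39 with DESeq2, and 2 to 20 with a library left out, the fewest without 3'RR-deficient LPS replicate 1.

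Some uncalled values turned sign. With total count scaling ArgACG was 0.56, AsnGTT 0.42 and IleAAT 0.25, and with microRNA scaling they were 0.69, 0.51 and 0.49, with IleGAT at 0.22. With tRNA scaling ArgCCG was -0.19 and ThrTGT -0.25, and the rows chr1.tRNA1030-ProCGG, chr11.tRNA396-ProCGG, chr13.tRNA969-ProAGG, chr14.tRNA711-ProAGG and chr7.tRNA979-ProAGG were at -0.029, -0.10, -0.080, -0.072 and -0.075. ThrTGT was -0.056 with DESeq2 size factors and in DESeq2. ArgACG was 0.086 with the CPM filter and 0.22 in 8 libraries. With the row of most counts ArgACG was 0.44, ArgCCG -0.16 and MetCAT -0.18. Without both second non-stimulated libraries ThrAGT was -0.092 and ThrTGT -0.36. With a library left out, ArgACG ran from -0.34 to 0.35, AsnGTT from -0.57 to 0.22, IleAAT from -0.41 to 0.0060 and ThrTGT from -0.15 to 0.33, and ArgACG in Eµ-deficient against wt cells from -0.079 to 1.68. The cause of these changes was not tested.

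The share of tRNA counts differed by 1.72 percentage points over all counts, 8.52 without both second non-stimulated libraries, 4.75 without Pro, 12.8 with rows of most counts, and 8.35 to 11.8 with a library left out. The exact permutation p rose to 0.0556, the smallest possible, where the Eµ-deficient pair was lost. The comparisons between genotypes, within genotypes and of the responses kept 0 called anticodons under every alternative run.

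Replicate numbers did not pair the libraries between cultures, where replicate differences correlated across features at -0.194 to -0.052. Within a culture, with 2 pairs each, they correlated at 0.662 between the non-stimulated groups and 0.340 between the LPS groups. A replicate block within each culture called 0 anticodons between 3'RR-deficient and wt cells, with medians of 0.14 without and -0.39 with LPS. With a replicate block 4 anticodons (ArgCCT, at 1.30 and edgeR adjusted p = 0.0321, beside the 3 reported), 1 amino acid and 26 single rows were called with LPS, ArgACG was 0.11 and AsnGTT 0.011, and the share differed by 11.8 points (exact p = 0.125, the smallest possible with 4 pairs).

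A biological coefficient of variation of 56.6%, with 2 pools in a group and 1 for each Eµ-deficient culture, set the precision of these comparisons. Counts covered short inserts, and no library tells how much full tRNA the cells held.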
